A study of Mus musculus with 10 samples.

Results

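The collagen genes were taken as every row whose symbol has the form of a collagen alpha chain, such as Col1a1, which gave 44 of the 22329 genes measured. They were read in 10 subcutaneous tumours of B16F10, a transplantable mouse melanoma cell line, grown in C57BL6 mice from 500000 injected cells. Each tumour received a single injection of 80 µg of mRNA directly into the tumour and was taken 7 days later. In the 5 control tumours, numbered 1 to 5, all of it encoded luciferase. In the 5 cytokine tumours, numbered 6 to 10, the same total was split evenly, at 20 µg each, among 4 mRNAs for murine forms of IL-12 (as a single chain), IL-15sushi, GM-CSF and IFNalpha. The control is therefore injected with mRNA too, the tumour cells all derive from 1 cell line, and neither the sex nor the age of the mice is stated. The question was whether the genes of the collagen matrix, and fibrillar against basement membrane chains in particular, differed between cytokine and control tumours.

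Collagens are secreted proteins in which 3 alpha chains wind into a triple helix. Fibrillar collagens assemble into the fibrils that give connective tissue its strength. Type 4 collagen forms the sheet-like network of basement membranes, on which types 15 and 18 also sit. In a tumour under the skin, fibroblasts are the textbook source of types 1 and 3, endothelial cells and pericytes lay down type 4, and types 2, 9, 10 and 11 are best known from cartilage. In bulk tissue a lower value can come from fewer cells of a type or from less RNA per cell, and these cannot be told apart here.

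The 44 genes comprised 9 fibrillar genes (types 1, 2, 3, 5 and 11), 8 basement membrane genes (types 4, 15 and 18) and 27 others. Values are TPM, the share of each library that a transcript takes, corrected for transcript length and scaled to a total of 1000000, so levels of different genes can be set side by side. Sequencing depth is unknown from TPM. A gene was tested where its TPM was at least 1 in at least 5 libraries. This left 29 collagen genes, comprising all 9 fibrillar, 6 basement membrane and 14 others. Each of the 29 reached 1 TPM in at least 1 library of both groups. The filter asks for 5 libraries, which is the size of 1 group. Genes at 1 TPM or more in all 5 control tumours, such as Col11a2 and Col4a4, would therefore pass it on those alone. The other 15 stayed low, with a highest value of 6.44 TPM (Col9a2 in tumour 1), and 9 of them never reached 1 TPM. All 4 transmembrane collagens, Col13a1, Col17a1, Col23a1 and Col25a1, were among the 15, as was Col7a1, which anchors skin epithelium to the dermis.

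Libraries held 11513 to 12984 genes at 1 TPM or more. Mitochondrial transcripts took 16.2 to 27.9% of TPM in control and 4.44 to 19.2% in cytokine tumours. Tumour 7 stood apart from its label as a melanoma. The 9 markers of pigment cells summed to 41.9 TPM there, against 2604 to 16940 in the other tumours, and 279 of 1534 chemosensory receptor genes were above 0, against 14 to 43 elsewhere. Macrophage markers (10 genes) summed to 144 to 636 TPM in control and 797 to 8031 in cytokine tumours, while endothelial markers (9 genes) summed to 86.2 to 160 and 96.2 to 138. T cell markers (9 genes) summed to 3.83 to 47.5 TPM in control and 62.9 to 3682 TPM in cytokine tumours, with the highest sum in tumour 7. Fibroblast markers (11 genes) summed to 49.0 to 438 and 242 to 17549, most of the latter from Ly6a and Thy1, which leukocytes also express. The part of any of these in the collagen values was not tested.

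Promoter sequences are shown for 4 of the collagen genes. Of the 4, Col10a1, Col11a1 and Col11a2 differed widely between tumours, and Col3a1 was the most abundant collagen on average. Col2a1, which differed more, is not shown. The sequences shown were picked among those that overlap no annotated exon. Each is the 250 bases before the gene's start, 5′ to 3′ on the coding strand, from RefSeq on GRCm38.p6. They lie at chr1:45311288-45311537, chr10:34389731-34389980, chr3:114030290-114030539 and chr17:34038888-34039137, in the order Col3a1, Col10a1, Col11a1 and Col11a2, all on the plus strand, and overlap no annotated exon. Capitals mark matches, on either strand, to TATAAA (the TATA box), CCAAT (the CCAAT box) and ACAAT (a core recognised by SOX proteins).
Col3a1 promoter: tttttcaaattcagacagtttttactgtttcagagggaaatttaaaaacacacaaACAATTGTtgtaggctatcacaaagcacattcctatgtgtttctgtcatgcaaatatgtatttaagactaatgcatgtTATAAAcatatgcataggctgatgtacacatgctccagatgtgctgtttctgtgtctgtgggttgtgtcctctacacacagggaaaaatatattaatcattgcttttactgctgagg
Col10a1 promoter: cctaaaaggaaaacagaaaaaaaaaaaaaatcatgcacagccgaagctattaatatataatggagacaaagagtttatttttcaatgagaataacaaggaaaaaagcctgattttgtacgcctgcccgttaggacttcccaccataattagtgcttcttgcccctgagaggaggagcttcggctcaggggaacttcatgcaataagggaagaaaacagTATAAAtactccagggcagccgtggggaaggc
Col11a1 promoter: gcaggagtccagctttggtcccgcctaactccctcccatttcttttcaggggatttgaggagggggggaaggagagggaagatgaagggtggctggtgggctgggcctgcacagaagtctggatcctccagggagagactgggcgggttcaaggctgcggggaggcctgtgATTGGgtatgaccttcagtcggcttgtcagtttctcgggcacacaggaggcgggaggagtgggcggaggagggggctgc
Col11a2 promoter: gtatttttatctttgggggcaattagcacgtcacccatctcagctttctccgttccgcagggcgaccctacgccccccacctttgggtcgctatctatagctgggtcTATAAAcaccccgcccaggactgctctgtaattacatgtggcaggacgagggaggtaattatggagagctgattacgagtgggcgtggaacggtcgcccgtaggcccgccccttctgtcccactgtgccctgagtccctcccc
The Col3a1, Col10a1 and Col11a2 windows each held 1 TATAAA, and the Col11a1 window held 1 CCAAT, read as ATTGG on this strand. In Col3a1 the longer run in capitals is ACAAT overlapping its own reverse complement, ATTGT. Of 32851 mouse promoter windows of this length, 12.4% held TATAAA, 33.9% CCAAT and 27.7% ACAAT. Of the 38 windows that belong to 35 of the collagen genes, 5 held TATAAA, 13 CCAAT and 2 ACAAT. These are letter matches and say nothing of what is bound.

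Of the 29 collagen genes tested, 1 was lower in the cytokine tumours, Col11a2, and 0 were higher. That is 3.45% called, against 10.4% of all 12497 genes tested (limma on log2(TPM + 1), Benjamini-Hochberg adjusted p under 0.05). Among all genes 3.02% were called lower and 7.41% higher. Of all calls 71.0% were therefore on the higher side, a share that fell to 60.0% when libraries were rescaled without their 50 most abundant genes and to 47.8% without mitochondrial genes. At an unadjusted p under 0.05 there were 5 collagen genes, or 17.2% of the 29, against 30.5% of all genes. By class they were 1 of 9 fibrillar, 4 of 6 basement membrane and 0 of 14 other genes. Of the 4, Col15a1 was higher and Col4a1, Col4a2 and Col4a4 were lower. By an exact rank test 0 collagen genes passed the adjusted threshold, and 0 of all 12497 genes did. The smallest p that this test allows with 5 against 5 is 0.00794. Only 1153 genes reached it, by groups that do not overlap, which is too few for any gene to pass after adjustment. That 0 is therefore no result about the collagens. In 0 of the 29 did the 5 values of 1 group lie wholly outside those of the other, against 9.23% of all genes tested. The median log2 change was 0.01 over the collagens, with 15 positive and 14 negative, and -0.18 over all genes. For 24 of the 29 the 95% interval of the change included 0, and for many it was wide enough to hold a large change in either direction.

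**Figure D1:**
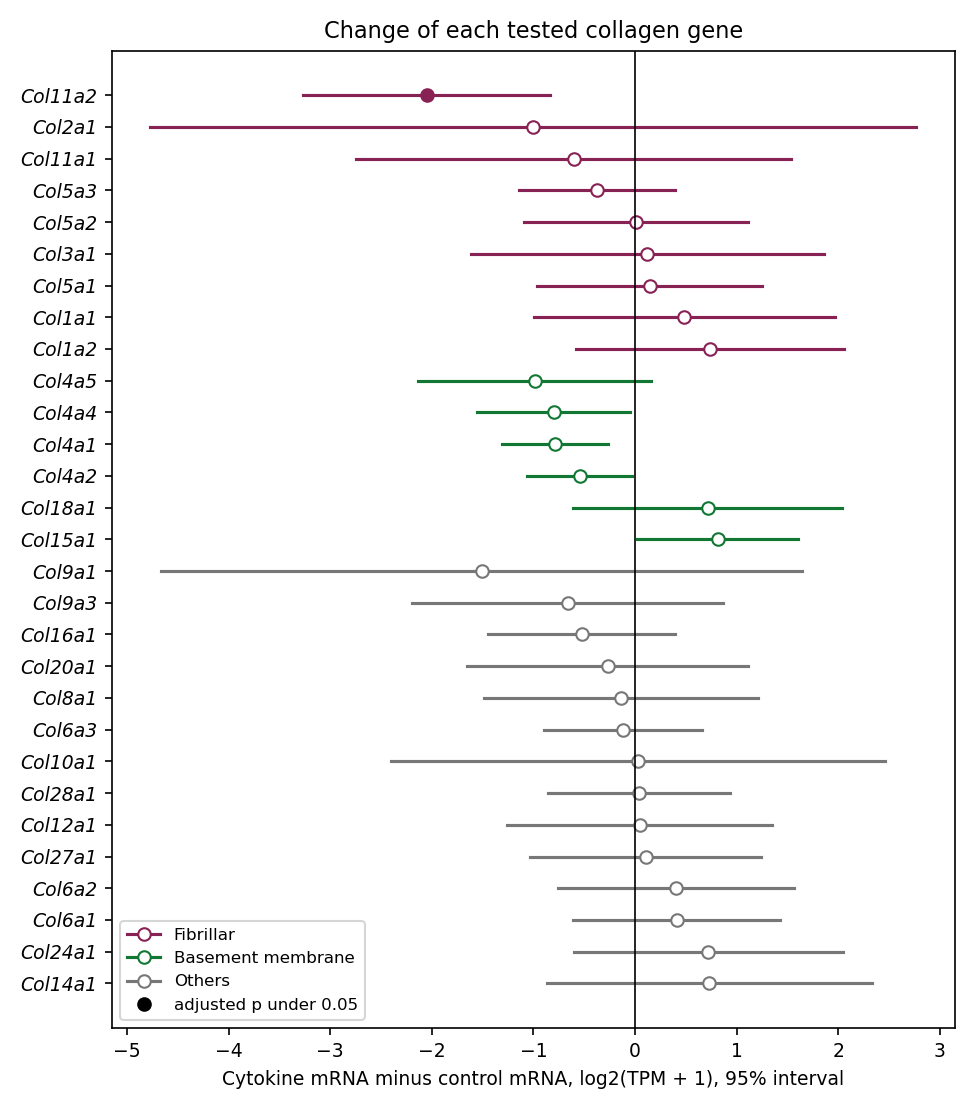
Change in log2(TPM + 1), cytokine minus control, with its 95% interval from limma, for the 29 tested collagen genes by class (5 tumours a group). The filled point is Col11a2, the only gene with an adjusted p under 0.05, and the intervals of Col2a1, Col9a1 and Col10a1 are the widest.

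The fibrillar collagens of types 1, 3 and 5 were spread widely over the tumours of both groups, with no gene passing the test. Col1a1 and Col1a2 encode the chains of type 1 collagen, the main collagen of skin and tendon. Col1a1 stood at 394, 176, 297, 124 and 27.6 TPM in control tumours 1 to 5 and at 299, 424, 226, 197 and 69.6 TPM in cytokine tumours 6 to 10. Tumours 5 and 10 were the lowest, and the groups overlapped over most of their range. The log2 change of Col1a1 was 0.49 (SE 0.68, 95% interval -0.998 to 1.97, limma adjusted p = 0.640).

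Col1a2 followed the same pattern, with 162, 69.5, 129, 54.8 and 14.1 TPM in control and 123, 216, 120, 107 and 45.4 TPM in cytokine tumours. Again tumour 7 was highest and tumour 5 lowest. Its log2 change was 0.74 (SE 0.60, 95% interval -0.58 to 2.06, limma adjusted p = 0.412). The ratio of Col1a1 to Col1a2 was 2.30 ± 0.22 in control and 1.93 ± 0.32 in cytokine tumours (SD, n = 5 each). Over single tumours it ran from 1.53 to 2.53. The type 1 trimer holds the 2 chains at 2 to 1, but a ratio of RNA levels does not measure protein chains. The 2 chain genes thus moved together although each ranged 15.3-fold over the 10 tumours.

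Col3a1 encodes the chain of type 3 collagen, the thin fibrils of loose connective tissue and vessel walls. It measured 416, 266, 301, 213 and 26.9 TPM in control and 130, 182, 510, 485 and 50.4 TPM in cytokine tumours. Its highest values, in tumours 8 and 9, and its lowest but 1, in tumour 10, were all in the cytokine group. The log2 change was 0.12 (SE 0.79, 95% interval -1.61 to 1.86, limma adjusted p = 0.929). Col3a1 did not follow Col1a1 closely: the ratio of Col3a1 to Col1a1 was 0.97 to 1.71 in control tumours, 0.43 in both tumours 6 and 7, and 2.25 and 2.46 in tumours 8 and 9.

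Type 5 collagen nucleates type 1 fibrils and sets their width. Col5a2, its most abundant chain gene here, was at 127, 27.7, 70.9, 61.8 and 20.0 TPM in control and 22.3, 44.5, 91.5, 61.2 and 58.5 TPM in cytokine tumours. All 5 cytokine values fell inside the control range, and the log2 change was 0.01 (SE 0.50, 95% interval -1.09 to 1.11, limma adjusted p = 0.991). Mean Col5a1 was 16.5 ± 12.4 TPM in control and 16.01 ± 7.00 TPM in cytokine tumours, and mean Col5a3 11.4 ± 3.96 and 8.89 ± 3.91 TPM (SD, n = 5 each). For Col1a1, Col1a2, Col3a1 and Col5a1, tumours 5 and 10 were the 2 lowest of the 10. Of the 11 fibroblast markers, 7 also had their 2 lowest values in these tumours, and the other 4 did not: Pdgfra, for instance, was lowest in tumour 4 (3.17 TPM) and Pdgfrb in tumour 2 (6.23 TPM). Among the 7 were Dcn and Dpt, with Dcn at 1.91 TPM in tumour 5 and 24.2 TPM in tumour 10 against 54.2 to 376 TPM in the others, and Dpt listed at 0 in tumour 5 and at 2.17 TPM in tumour 10.

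**Figure D2:**
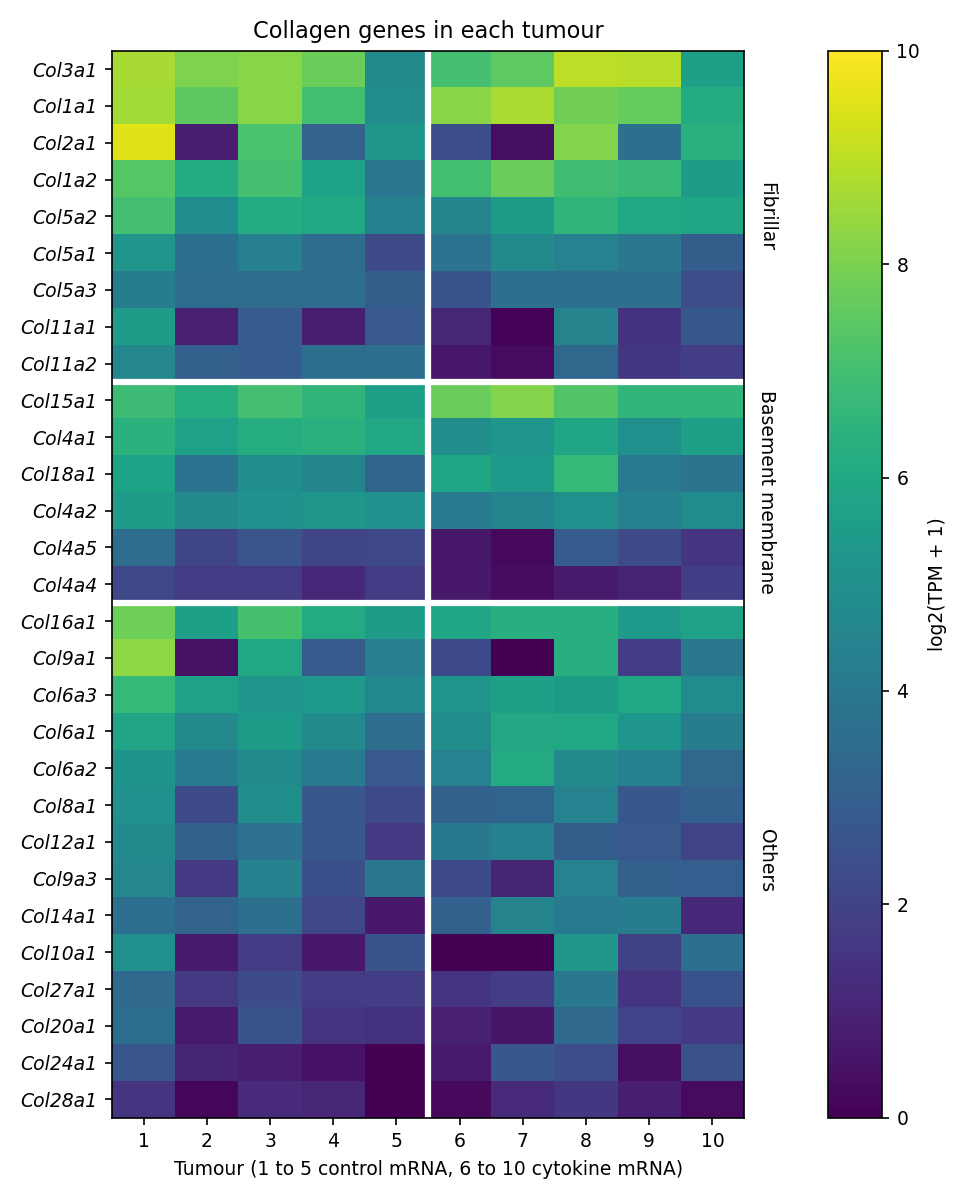
Level of the 29 tested collagen genes as log2(TPM + 1), with 1 column per tumour (1 to 5 control mRNA, 6 to 10 cytokine mRNA) and genes grouped by class and ordered by mean level. Tumour 5 has the darkest cell in the Col1a1, Col1a2, Col3a1 and Col5a1 rows, while Col2a1 and Col9a1 have bright and dark cells in both groups.

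Of the 3 cartilage-type fibrillar genes, Col2a1 and Col11a1 also varied widely in both groups without passing the test, and Col11a2 passed it. Col11a2 encodes a chain of type 11 collagen, which sits inside cartilage fibrils. It was at 23.8, 7.48, 6.52, 11.2 and 11.97 TPM in control tumours and at 0.543, 0.214, 9.10, 2.05 and 2.53 TPM in cytokine tumours. In 4 of 5 cytokine tumours it lay below the lowest control, and tumour 8 lay inside the control range. Col11a2 fell by 2.05 on the log2 scale (SE 0.55, 95% interval -3.26 to -0.84, limma adjusted p = 0.0391). The call rested on the whole set of tumours: it was lost on leaving out any 1 of 8 of the 10 tumours (adjusted p up to 0.101, without tumour 6) and kept without tumour 8 or tumour 10. Without tumour 7 the change was -1.74 (adjusted p = 0.0727), and without tumours 6 and 7 together -1.33 (adjusted p = 0.182).

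Col2a1, the chain of type 2 collagen and the hallmark of cartilage, varied more between tumours than any other collagen with all its values above 0. It measured 732, 0.798, 144, 7.82 and 38.4 TPM in control and 4.28, 0.305, 280, 11.98 and 81.4 TPM in cytokine tumours, a 2403-fold range. High and low tumours occurred in both groups, and in tumour 1 Col2a1 was the most abundant collagen of all. The log2 change was -0.9996 (SE 1.72, 95% interval -4.77 to 2.77, limma adjusted p = 0.711), and it changed sign without tumour 1 (0.081) and without tumours 6 and 7 together (0.87).

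The other genes of types 9, 10 and 11 had a similar order of tumours. This grouping was made after the values were seen, so it is described and not tested. Col9a1, a chain of the type 9 collagen that coats cartilage fibrils, was at 314, 0.349, 62.4, 6.13 and 18.3 TPM in control and at 3.72, 0, 76.1, 2.54 and 14.4 TPM in cytokine tumours. Col11a1, the other type 11 chain, was at 43.4, 0.816, 6.40, 0.770 and 5.93 TPM in control and at 1.09, 0.0661, 21.4, 1.73 and 5.66 TPM in cytokine tumours. Both were highest in tumour 1, then tumour 8, then tumour 3.

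Col10a1, the network collagen of cartilage about to be replaced by bone, was at 31.3, 0.670, 2.48, 0.597 and 4.92 TPM in control and at 0, 0, 37.9, 2.95 and 11.8 TPM in cytokine tumours. Its highest tumours were 8 and 1. Over the 7 genes of types 2, 9, 10 and 11, the summed level ran from 1.65 TPM in tumour 7 to 1175 TPM in tumour 1. Tumour 7 was the lowest, or tied for the lowest, in all 7. These genes made up 37.2% of collagen TPM in tumour 1 and 0.103% in tumour 7.

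Col11a2 departed from the order of its group among the control tumours. In tumours 2 and 4, where Col11a1 was at 0.816 and 0.770 TPM, Col11a2 was at 7.48 and 11.2 TPM. In cytokine tumour 10, where Col2a1 was 81.4 TPM, Col11a2 was 2.53 TPM. Whether Col11a2 changed more than Col2a1 or Col11a1 was not tested, and the intervals of the other 2 (-4.77 to 2.77 for Col2a1, -2.74 to 1.54 for Col11a1) hold its change.

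**Figure D3:**
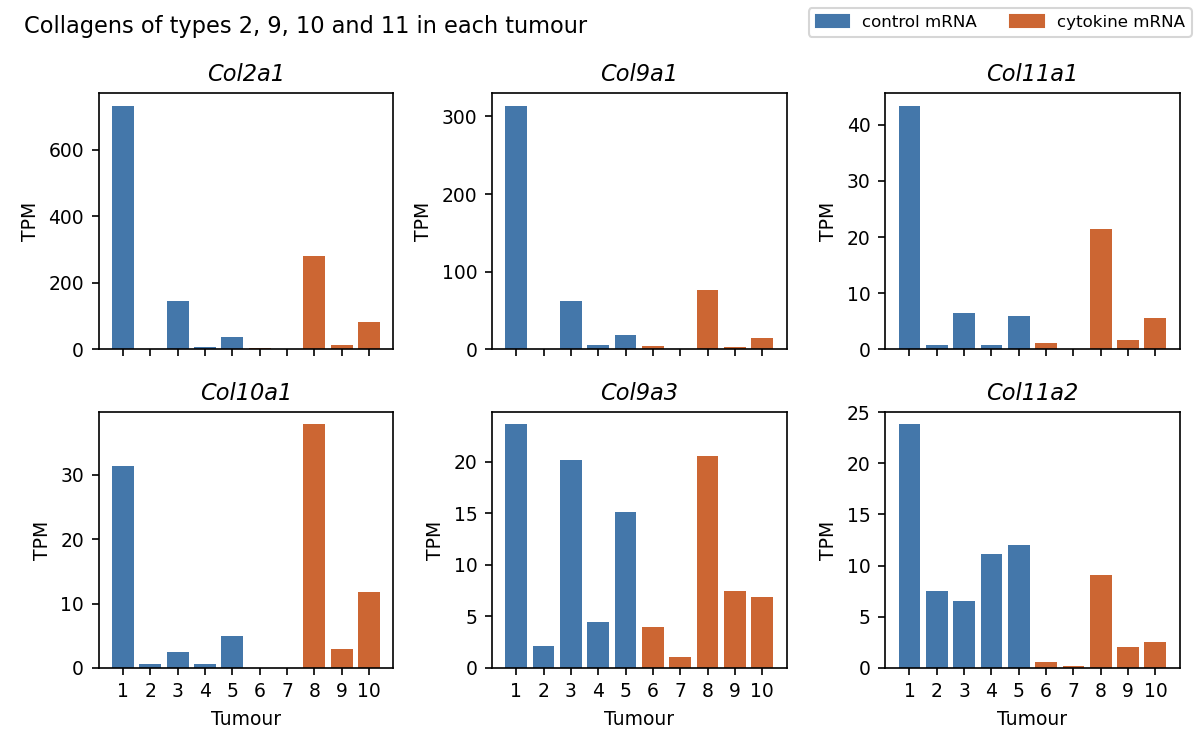
TPM of 6 genes of types 2, 9, 10 and 11 in each tumour, on a linear axis from 0 with its own scale per gene (bars are single tumours, blue control mRNA and orange cytokine mRNA). Tumours 1 and 8 are high in Col2a1, Col9a1, Col11a1, Col10a1 and Col9a3, whereas Col11a2 is above 6 TPM in all 5 control tumours and in tumour 8.

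Of 9 cartilage and bone markers, 7 did not pass the filter. Acan, the main cartilage proteoglycan, did not exceed 0.257 TPM, and Chad did not exceed 0.442 TPM. Matn1, Ibsp and Sp7 were each listed at 0 in 9 of the 10 tumours. Comp and Matn3 reached higher values. Comp was at 4.39 TPM in tumour 3 and 4.78 TPM in tumour 7, and was listed at 0 in tumour 1. Matn3 was at 1.33 TPM in tumour 1 and 2.18 TPM in tumour 3. The 2 that passed were Sox9 and Bglap. Bglap, which encodes the bone protein osteocalcin, was at 16.3 TPM in tumour 1 and at 12.3, 66.5, 48.9 and 7.33 TPM in tumours 6, 8, 9 and 10, and was listed at 0 in the other 5 (limma adjusted p = 0.122). Sox9, which drives Col2a1 in chondrocytes, was at 2.84 TPM in tumour 1, the tumour with the most Col2a1, and at 4.31 to 16.04 TPM in the other 9. Of the 9 pigment cell markers, 8 were lower in tumour 1 than in any other control, such as Tyrp1 at 508 TPM against 5137 to 6568 TPM, and Oca2 was listed at 0 there. The exception was Sox10, at 532 TPM in tumour 1 against 320 to 369 TPM in the other controls. In tumour 7 Sox10 was at 2.18 TPM. Of 3 genes looked up after the collagen values were seen, Hapln1, which links proteoglycan to hyaluronan, had its 5 highest values in the same order of tumours as Col2a1, from 615 TPM in tumour 1, and was at 0.453 TPM in tumour 7. Sox5 and Sox6, partners of Sox9 in cartilage, departed from that order. Sox5 was highest in tumour 1 (53.2 TPM), then tumours 3 and 8, and Sox6 was highest in tumour 9 (93.4 TPM), where Col2a1 was at 11.98 TPM. Skeletal muscle markers (9 genes) summed to 885 TPM in tumour 1, 530 in tumour 3 and 190 in tumour 8, but also to 185 in tumour 7 and to 11.1 and 12.6 in tumours 10 and 5. The part of cartilage, bone, pigment or muscle cells in the levels of Col2a1 was not tested.

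Among basement membrane collagens the major type 4 chains had lower values in the cytokine tumours and types 15 and 18 had higher ones, with none passing the test. Col4a1 and Col4a2 encode the chains of the widespread type 4 trimer. Col4a1 was at 83.3, 51.8, 72.7, 81.1 and 62.7 TPM in control and 29.5, 37.0, 57.4, 31.4 and 49.7 TPM in cytokine tumours. In 4 of 5 cytokine tumours it lay below the lowest control, with tumour 8 above tumour 2. Its log2 change was -0.79 (SE 0.24, 95% interval -1.31 to -0.27, limma adjusted p = 0.0560), and over the alternatives tried the change stayed between -0.996 and -0.62 with an adjusted p of 0.0272 to 0.200.

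That side of the threshold turned on the scaling and on 1 tumour. The Col4a1 difference passed when libraries were rescaled without the 50 most abundant genes (adjusted p = 0.0346), without mitochondrial genes (0.0272 for this scaling), after quantile normalization (0.0448), with quality weights (0.0496) and without tumour 10 (0.0277). The 10 pericyte and smooth muscle markers summed to 90.5 to 242 TPM in control and 57.0 to 112 TPM in cytokine tumours, so the groups overlapped, as they did for the endothelial sum. Rgs5 was the 1 marker of the 10 that passed the test, at 32.8 to 37.5 TPM in control and 11.9 to 23.8 TPM in cytokine tumours (limma adjusted p = 0.0214). It was also the only one whose groups did not overlap. Both counts are near the shares over all genes tested, of which 10.4% were called and 9.23% had groups that did not overlap. Of the 10 markers, 8 had negative changes and 2 positive ones (median log2 change -0.38, beside -0.18 over all genes). Those of Notch3, Kcnj8, Acta2 and Myh11 lay between -0.14 and 0.16, and those of Des, Cnn1, Abcc9, Tagln and Cspg4 between -1.02 and -0.26. The part of pericytes in the type 4 values was not tested.

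Col4a2 was at 43.5, 24.8, 32.0, 38.0 and 32.8 TPM in control and 16.4, 21.6, 31.2, 20.0 and 27.7 TPM in cytokine tumours. In 3 of 5 cytokine tumours it lay below the lowest control (log2 change -0.54, SE 0.24, limma adjusted p = 0.147). The RefSeq starts of Col4a1 and Col4a2 lie 21 bases apart on opposite strands of the same chromosome, and the pair is known to be transcribed from that shared region in opposite directions. The ratio of Col4a1 to Col4a2 was 1.91 to 2.27 in control and 1.57 to 1.84 in cytokine tumours, so the ranges did not overlap. This ratio was picked after the values were seen and carries no test. The other ratios looked at overlapped between the groups. They were Col1a1 to Col1a2, Col3a1 to Col1a1, Col6a1 to Col6a2 and Col4a1 to Col1a1.

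**Figure D4:**
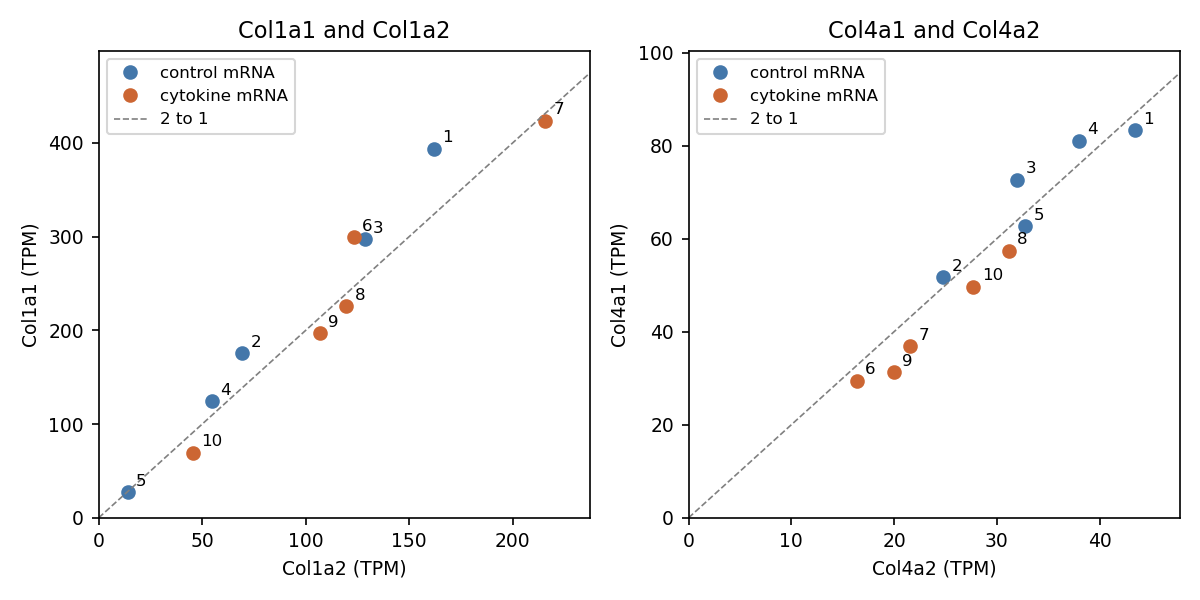
Col1a1 against Col1a2 and Col4a1 against Col4a2, in TPM, with 1 numbered point per tumour and a dashed line where the first gene is at 2 times the second. Col1a1 and Col1a2 lie along the line from tumour 5 to tumour 7, and the cytokine tumours lie below the line for Col4a1, where the control tumours lie near it or above.

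Of the minor type 4 chains, Col4a5 was at 5.22 ± 3.23 TPM in control and 2.60 ± 2.58 TPM in cytokine tumours, and Col4a4 at 2.37 ± 0.81 and 1.03 ± 0.95 TPM (SD, n = 5 each). Their adjusted p were 0.219 and 0.143 (limma). Col4a3 and Col4a6 did not pass the filter. Without tumour 10, Col4a4 also passed the threshold (adjusted p = 0.0307).

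Col15a1, whose product bridges basement membranes to the fibrils beneath, was the most abundant basement membrane collagen. It was at 116, 72.3, 127, 91.7 and 48.9 TPM in control and 206, 283, 157, 93.7 and 94.8 TPM in cytokine tumours. Tumours 6, 7 and 8 lay above every control, and tumours 9 and 10 inside the control range. The log2 change was 0.81 (SE 0.36, 95% interval 0.02 to 1.60, limma adjusted p = 0.154), falling to 0.37 without tumours 6 and 7 together. Col18a1, the parent of the fragment endostatin, was at 25.9 ± 18.1 TPM in control and 46.4 ± 36.2 TPM in cytokine tumours (SD, n = 5 each), with the highest value, 102 TPM, in tumour 8 (adjusted p = 0.427).

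Set against each other, the median log2 change was 0.01 over the 9 fibrillar genes and -0.67 over the 6 tested basement membrane genes, beside -0.18 over all genes. The latter covers 4 type 4 chains with negative changes and 2 positive ones, Col15a1 and Col18a1. Fibrillar genes made up 54.4 ± 11.7% of collagen TPM in control and 58.2 ± 8.48% in cytokine tumours, and basement membrane genes 21.1 ± 9.65% and 22.1 ± 6.76% (SD, n = 5 each). The total over all 44 genes was 454 to 3157 TPM in control and 679 to 2068 TPM in cytokine tumours, so the groups overlapped.

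The log2 ratio of Col4a1 to Col1a1, which does not move with the scaling of a library apart from its pseudocount, was -2.23, -1.74, -2.02, -0.61 and 1.15 in control and -3.30, -3.48, -1.96, -2.61 and -0.48 in cytokine tumours. Tumours 5 and 10, low in Col1a1, had the highest ratio of their group. The difference was -1.28, beside an SD of 1.40 in control and 1.22 in cytokine tumours. The exact 2-sided permutation p was 0.175, where the smallest p that 5 against 5 allows is 0.00794.

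The 14 other tested collagens gave 0 calls, with changes from -1.51 (Col9a1) to 0.73 (Col14a1) and a median of 0.04. Col16a1, a fibril-associated collagen, was the most abundant of them. It was at 219, 48.8, 136, 67.6 and 45.3 TPM in control and 58.3, 76.0, 77.7, 39.9 and 51.8 TPM in cytokine tumours. Tumours 1 and 3 were high and the rest lay together (log2 change -0.52, SE 0.42, 95% interval -1.45 to 0.40, limma adjusted p = 0.404).

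Type 6 collagen makes beaded filaments around cells. Mean Col6a1 was 32.3 ± 17.8 TPM in control and 42.2 ± 21.01 TPM in cytokine tumours, Col6a2 20.2 ± 11.2 and 28.8 ± 22.9 TPM, and Col6a3 50.9 ± 29.9 and 43.3 ± 12.99 TPM (SD, n = 5 each). The adjusted p of the 3 genes were 0.559 to 0.845 (limma), and the groups overlapped in each. The ratio of Col6a1 to Col6a2 was 1.41 to 2.43 in 9 tumours and 0.953 in tumour 7.

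Of the fibril-associated collagens, Col12a1 was at 10.9 ± 9.60 and 10.3 ± 7.21 TPM and Col14a1 at 7.07 ± 4.99 and 12.7 ± 8.11 TPM in control and cytokine tumours (SD, n = 5 each). Col8a1, which forms hexagonal networks beneath endothelium, was at 15.1 ± 14.6 and 10.00 ± 6.12 TPM. The lowest means of tested members were those of Col28a1, at 0.897 ± 0.802 and 0.925 ± 0.792 TPM. Across all 29 tested genes the highest value was in tumour 1 for 17, in tumour 7 for 7 and in tumour 8 for 5, and the lowest was in tumour 5 for 15 and in tumour 7 for 8.

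Genes that make, trim, bind and degrade collagen were read from 6 lists with 90 genes in all, of which 80 were tested. In these lists 4 were called higher and 0 lower, or 5% called, against 10.4% of all genes tested (7.41% higher and 3.02% lower). At an unadjusted p under 0.05 there were 17 of the 80 (limma), or 21.2%, against 30.5% of all genes. By the exact rank test 0 passed the adjusted threshold, as was so for all genes, since none could pass it with 5 against 5 here. The median log2 change was 0.20, beside -0.18 over all genes. Each count in a single list below stands against the same shares.

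Collagen chains are hydroxylated, glycosylated and folded in the endoplasmic reticulum before secretion. Of 22 genes for these steps, 21 were tested, 1 was called and 14 had negative changes (median -0.35). At an unadjusted p under 0.05 there were 8 of the 21 (limma), or 38.1%, against 30.5% of all genes. Of these, Plod1, Plod2, P3h3, Ppib, Serpinh1 and Mia3 were lower, and P4ha3 and Creb3l1 were higher. The call was P4ha3, a catalytic subunit of prolyl 4-hydroxylase, which was at 3.51, 2.12, 4.87, 2.13 and 0.674 TPM in control and 18.4, 29.0, 12.3, 11.4 and 3.95 TPM in cytokine tumours. P4ha3 rose by 2.02 on the log2 scale (SE 0.49, limma adjusted p = 0.0265), with tumour 10 inside the control range. Serpinh1, the collagen chaperone HSP47, was at 302 ± 91.2 TPM in control and 130 ± 66.5 TPM in cytokine tumours (SD, n = 5 each; adjusted p = 0.0559), a value given although it falls outside the rule for named genes.

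Procollagen ends are cut off outside the cell and fibrils are then crosslinked by lysyl oxidases. All 10 tested of these 13 genes had positive changes (median 0.77), and 0 were called, with 1 at an unadjusted p under 0.05 (limma). The most abundant were Pcolce, an enhancer of procollagen C-proteinase, at 113 ± 81.6 and 111 ± 30.4 TPM in control and cytokine tumours, and Loxl3, a lysyl oxidase, at 35.7 ± 18.6 and 50.6 ± 44.7 TPM (SD, n = 5 each). Neither differed by more than its spread.

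Of 19 matrix proteins that bind interstitial collagen, 18 were tested and 16 had positive changes (median 0.96). Only Thbs1, which encodes thrombospondin, passed the test. Thbs1 was at 36.3, 12.8, 24.2, 16.3 and 7.52 TPM in control and 73.2, 54.1, 138, 36.4 and 32.6 TPM in cytokine tumours, and rose by 1.71 on the log2 scale (SE 0.46, limma adjusted p = 0.0391). Of 15 basement membrane partners, 13 were tested, 0 were called, 1 was at an unadjusted p under 0.05 and the median was -0.08 (limma). Hspg2, which encodes perlecan, was at 149 ± 36.7 and 141 ± 63.2 TPM, and the laminin chain gene Lamc1 at 124 ± 66.9 and 120 ± 47.3 TPM, in control and cytokine tumours (SD, n = 5 each).

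Among 11 collagen receptors, 9 were tested and 1 was called (median change 0.32). Lair1, an inhibitory receptor of leukocytes that binds collagen, was at 24.7, 13.7, 17.6, 12.96 and 0 TPM in control and 160, 367, 120, 99.8 and 16.5 TPM in cytokine tumours. Lair1 rose by 3.40 on the log2 scale (SE 0.94, limma adjusted p = 0.0426), beside macrophage markers whose sums did not overlap between the groups. Among 10 genes of collagen degradation, 9 were tested and 1 was called (median change 0.86). Mmp13, a collagenase, was at 8.17, 1.80, 4.30, 2.38 and 0.976 TPM in control and 31.9, 16.7, 8.59, 12.6 and 4.96 TPM in cytokine tumours, and rose by 1.79 (SE 0.51, limma adjusted p = 0.0476).

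These 4 calls depended on the tumours included, as did the calls over all genes. Without tumour 10, 18 of the 80 genes were called higher and 5 lower, beside 1644 and 1594 of all 12497 genes. Without tumours 6 and 7 together, 0 were called in either direction, beside 19 higher and 1 lower of all genes. On leaving out tumour 2, 4, 5, 6, 8 or 9 alone 0 were called higher. Over all genes 321 to 540 were then called higher, against 926 with every tumour included.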

How the data were processed

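Messenger RNA of 10 tumours, 5 per group by their titles, was sequenced from polyA RNA with stranded libraries, per the labels' protocols. The authors deposited 1 table of TPM per gene symbol, scaled to 1000000 per column. Per the submitters' processing notes reads were aligned with STAR and the build was GRCh38, a human build, so the build used for these mouse samples is unsettled and no coordinates come from the table. The counting step is not given in the sources used here. Since depth cannot be read from TPM, no counting error is given, and as shares of a library the values move with abundant genes.

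Values were compared as log2(TPM + 1) with limma 3.58.1 in R 4.3.3 (eBayes with a trend, 2-sided, Benjamini-Hochberg over 12497 genes, adjusted p under 0.05). On this scale the change of low genes is understated. The limma step was tested on simulated data with independent noise for each gene and tumour. That simulation held no shift of a whole tumour, so it does not cover how the calls depend on single tumours. The Col4a1 to Col1a1 ratio had an exact permutation test. The design gives 5 mice per group, so each library was taken as 1 tumour. P-values set the difference between the groups against the spread between these samples. Values in each tumour were given for collagens called or with a mean of at least 50 TPM, with other collagens by mean or range. Of each pathway list, up to 4 called genes or the 2 most abundant were named. Col9a1, Col11a1, Col10a1 and Col4a2, Hapln1, Sox5, Sox6 and the other ratios were added after their values were seen. The collagen genes, gene lists and tests were chosen with earlier results of these data known. Alternatives were other pseudocounts (0.1 and 5), filters, scalings, weights, an exact rank test, a threshold of 0.01 and each tumour left out. Mia2 was found under its older symbol Ctage5.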

Additional observations from a re-analysis of the deposited data

Results flagged for a closer look

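Of 58 sets of 5 values (29 collagen genes in 2 groups), 2 had a tumour far from the other 4 of its group by Dixon's test, where chance gives about 2.9. Col3a1 in control tumour 5 was the lowest of its group, at 26.9 TPM, against 213 TPM in the nearest control tumour. Of the 11 fibroblast markers, 8 had their lowest value of all tumours there, among them Dcn at 1.91 TPM. Col8a1 in cytokine tumour 8 was the highest of its group, at 20.8 TPM, with the nearest tumour at 8.36 TPM. Tumours 1 and 3 of the control group had Col8a1 at 32.0 and 30.1 TPM.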

How the results depend on the processing

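No paired analysis was possible because the replicate numbers of the 2 groups, 1 to 5 and 6 to 10, are not shared. The count of collagens called higher stayed 0 under every alternative. By the exact rank test no gene of any kind could pass, so its counts of 0 below are no result about these genes. The count called lower, 1, became 0 with a pseudocount of 0.1, no filter, the exact rank test, a threshold of 0.01 or without tumours 6 and 7 together, became 2 without the 50 most abundant genes, without mitochondrial genes or after quantile normalization, and ran from 0 to 3 with 1 tumour left out. Pathway genes called higher, 4, became 1 with no filter, 2 with a filter at 5 TPM, 8 with quality weights and 0 with the rank test, a threshold of 0.01 or without tumours 6 and 7, and ran from 0 to 18 with 1 tumour left out. Pathway genes called lower, 0, became 1 with median-ratio scaling, 4 without mitochondrial genes, and 2 without the 50 most abundant genes, after quantile normalization or with quality weights, and ran from 0 to 5 with 1 tumour left out.

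Of the log2 changes that reversed, none was called in either form. Without mitochondrial genes Col3a1 came to -0.084 and Col5a2 to -0.19. Col5a2 came to -0.087 without the 50 most abundant genes and -0.00077 with a pseudocount of 5. Col2a1 came to 1.30 with quality weights and 0.87 without tumours 6 and 7, where Col1a1 came to -0.025. With 1 tumour left out, the ranges were -0.56 to 0.61 for Col3a1, -0.11 to 0.88 for Col1a1, -2.09 to 0.081 for Col2a1 and -0.31 to 0.34 for Col5a2. The Col4a1 to Col1a1 difference ran from -1.75 to -0.72. The Col11a2 change stayed between -2.79 and -1.14, with 13 of 22 alternatives losing the call, the rank test among them. Over all genes tested, median-ratio scaling moved the median change by 0.15 and the scaling without mitochondrial genes by -0.19. All genes called numbered 367 to 3238 with 1 tumour left out, 20 without tumours 6 and 7, 2769 with quality weights and 0 by the rank test, against 1304. The cause of these shifts was not tested. TPM gives no depth, so values near 0 cannot be told from absence.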
